A study of Homo sapiens with 39 samples.

Results

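U937 cells that had received the oligonucleotide Pu9- for 72 h were compared with U937 cells that had received Pu5- for the same time, on 3 arrays each, 6 of the 39 arrays of the series. The arrays were chosen by their labels alone, and all 18132 genes with a named probe set were tested. U937 is an established human line from a histiocytic lymphoma and is widely used as a model of immature myeloid cells. Cells in exponential growth were given 10 µM of an oligonucleotide in culture flasks and collected after 24, 48 or 72 h. Untreated cells of the same times served as controls, and the 3 untreated arrays of 72 h are used here as a common control. The labels name 1 line and give the arrays of a group as 3 repeat experiments, with no further detail. The p-values reflect only how far such repeats differed, part of which may be technical. Unless stated otherwise, this spread was pooled over the repeats of all 13 groups of the series, not of the compared groups alone. No oligonucleotide of an unrelated sequence was among the groups.

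Pu9- and Pu5- are single-stranded DNA oligonucleotides rich in guanine, related to a guanine-rich element of the MYC promoter. Runs of guanines let such DNA fold into G-quadruplexes, stacks of planar guanine tetrads. Pu9- has 20 nt, of which 15 are guanines, and holds 4 runs of at least 3 guanines. Pu5- has 42 nt, of which 31 are guanines, and holds 7 such runs. The longest run of bases they share has 15 nt and lies at positions 7 to 21 of Pu5-, counted from its 5' end. The molar dose was the same, so that Pu5- supplied 2.1 times as many nucleotides per molecule. The length, the sequence and the nucleotide mass differ together between the 2 arms and cannot be told apart.

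The genes on which the results turn belong to the cell division cycle. A wave of genes for DNA replication, driven largely by E2F factors, is transcribed around the G1/S boundary, and a later wave for the spindle, the kinetochore and cyclin B is transcribed in G2 and mitosis. In a culture of cells at all stages, the level of each wave depends both on the share of cells at that stage and on the RNA per cell, and on these arrays the 2 cannot be told apart. Many late genes carry in their promoters a cell cycle genes homology region, TTTGAA or TTTAAA, and CCAAT boxes, which bind the factor NF-Y.

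Array medians of the 6 arrays lay between 5.87 and 5.90 on the log2 scale, and 23 background control probe sets gave a median of 3.13 to 3.19. Of 12 measured myeloid line markers, the common leukocyte antigen gene PTPRC averaged 10.48 with Pu9- and 10.40 with Pu5-, and the lysozyme gene LYZ averaged 12.85 with Pu9- and 12.91 with Pu5-. The granule enzyme gene MPO read 4.81 in both arms and SPI1, a myeloid transcription factor gene, 5.25 with Pu9- and 5.27 with Pu5-. None of the markers of T cells (8 measured), B cells (6), erythroid cells (4), epithelium (7) or fibroblasts (7) passed the test between the arms. The B cell factor gene PAX5 read 8.98 with Pu9- and 9.14 with Pu5-, while the T cell gene CD3D read 3.81 with Pu9- and 3.91 with Pu5-. The ACTB 3' minus 5' probe difference, a measure of RNA and label quality, ran from 1.99 to 2.32 with Pu9- and from 1.93 to 2.15 with Pu5-. Its part in the results was not tested beyond a fit with this value as a covariate, which called 7 of the 9 genes described next.

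Replicate 1 stood apart from replicates 2 and 3 in both arms. On the second principal component of all arrays, which held 7.55% of the variance, it lay at 1.43 with Pu9-, against 21.23 and 16.17 for replicates 2 and 3, and at 2.21 with Pu5-, against 15.56 and 12.02. The untreated arrays of 72 h lay at -0.82, 4.85 and -0.20, nearer to replicate 1 of each arm than to its replicates 2 and 3. The counts are therefore also given without the replicate 1 array of each arm and without replicate number 1 in every group.

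A small group of genes was higher with Pu9- than with Pu5- at 72 h, among them KIF20A, CENPE, CDC20, CCNB1 and NEK2 of the G2/M and mitosis list. No gene was called lower in the fit that left the replicate number out. limma, with Benjamini-Hochberg adjustment over all genes, called 9 genes, 0.0496% of those tested, and all 9 were higher with Pu9-. With the replicate number fitted as a block, 12 genes were called, the same 9 among them. Of these 12, 10 were higher and 2 lower (SUCNR1 and CCNE2). At an unadjusted p under 0.05 there were 647 genes, or 3.57%, a share no larger than that threshold would give if no gene differed. Of the 9, 5 stand on the list of G2/M and mitosis genes. A fit of the 6 arrays alone, which estimates the spread from these arrays only, called 0 genes, with a lowest adjusted p of 0.32 and 491 genes at an unadjusted p under 0.05. Without the Pu9- array of replicate 1, 30 genes were called, 14 higher and 16 lower, and 7 of the 9 were among them (CCNB1 and KNSTRN were not). Without the Pu5- array of replicate 1, 3 genes were called, KIF20A, DLGAP5 and HMMR, all 3 higher. Without replicate number 1 in every group, 9 genes were called, 8 higher and 1 lower, and 4 of the original 9 were among them (KIF20A, DLGAP5, CENPE and NEK2).

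KIF20A, a kinesin needed for the last step of cell division, read 9.44, 9.30 and 9.08 with Pu9-, against 8.48, 8.58 and 8.58 with Pu5-. The lowest Pu9- array lay 0.49 above the highest Pu5- array. The difference was 0.72 ± 0.10 (SE; 95% interval 0.52 to 0.92), or 1.65-fold, with an adjusted p of 0.000361 from limma. It was 0.64 ± 0.11 without the Pu9- array of replicate 1 (adjusted p = 0.00651) and 0.69 ± 0.11 without the Pu5- array of replicate 1 (0.0106). DLGAP5, which stabilises the microtubules that reach the kinetochores, read 9.98, 10.10 and 9.97 with Pu9-, against 9.17, 9.50 and 9.53 with Pu5-. Again the groups did not overlap, and Pu5- replicate 1 was the lowest array. The difference of DLGAP5 was 0.62 ± 0.09 (0.43 to 0.80; adjusted p = 0.00116).

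Further genes of the spindle and the kinetochore differed in the same direction. CENPE, the kinesin that carries chromosomes along kinetochore microtubules, read 8.88, 8.83 and 8.95 with Pu9-, against 8.39, 8.39 and 8.44 with Pu5-. Its groups did not overlap, and its difference was 0.48 ± 0.08 (adjusted p = 0.00623). HMMR, a spindle-associated protein also known as a hyaluronan receptor, read 10.84, 10.63 and 10.56 with Pu9-, against 10.21, 10.26 and 10.01 with Pu5-. Every Pu9- array lay above every Pu5- array, by a difference of 0.52 ± 0.09 (adjusted p = 0.00664). KNSTRN, which encodes a kinetochore protein of the attachment to spindle microtubules, read 9.25, 9.02 and 9.11 with Pu9-, against 8.60, 8.67 and 8.54 with Pu5-. Its groups did not overlap, and its difference was 0.52 ± 0.11 (adjusted p = 0.0439), but leaving out any 1 of the 6 arrays ended the call, with an adjusted p of at least 0.0715.

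Regulators of mitotic entry and exit followed. CDC20, the activator of the anaphase-promoting complex, read 10.13, 9.99 and 10.07 with Pu9-, against 9.47, 9.64 and 9.64 with Pu5-. The lowest Pu9- array was 0.34 above the highest Pu5- array, and the difference was 0.48 ± 0.08 (adjusted p = 0.00664). CCNB1, cyclin B1, the partner of the kinase that starts mitosis, read 10.17, 10.05 and 9.93 with Pu9-, against 9.47, 9.70 and 9.64 with Pu5-. It was higher in every Pu9- array, by 0.45 ± 0.09 (adjusted p = 0.0423). NEK2, a kinase of the centrosome, read 9.89, 10.29 and 10.27 with Pu9-, against 9.49, 9.89 and 9.75 with Pu5-. The closest arrays of NEK2 were separated by only 0.00147, while the mean difference was 0.44 ± 0.09 (adjusted p = 0.0423). DEPDC1B, a DEP domain protein, read 10.19, 10.26 and 10.23 with Pu9-, against 9.79, 9.83 and 9.84 with Pu5-. Its groups were both narrow, and the difference was 0.41 ± 0.08 (adjusted p = 0.0423).

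**Figure D1:**
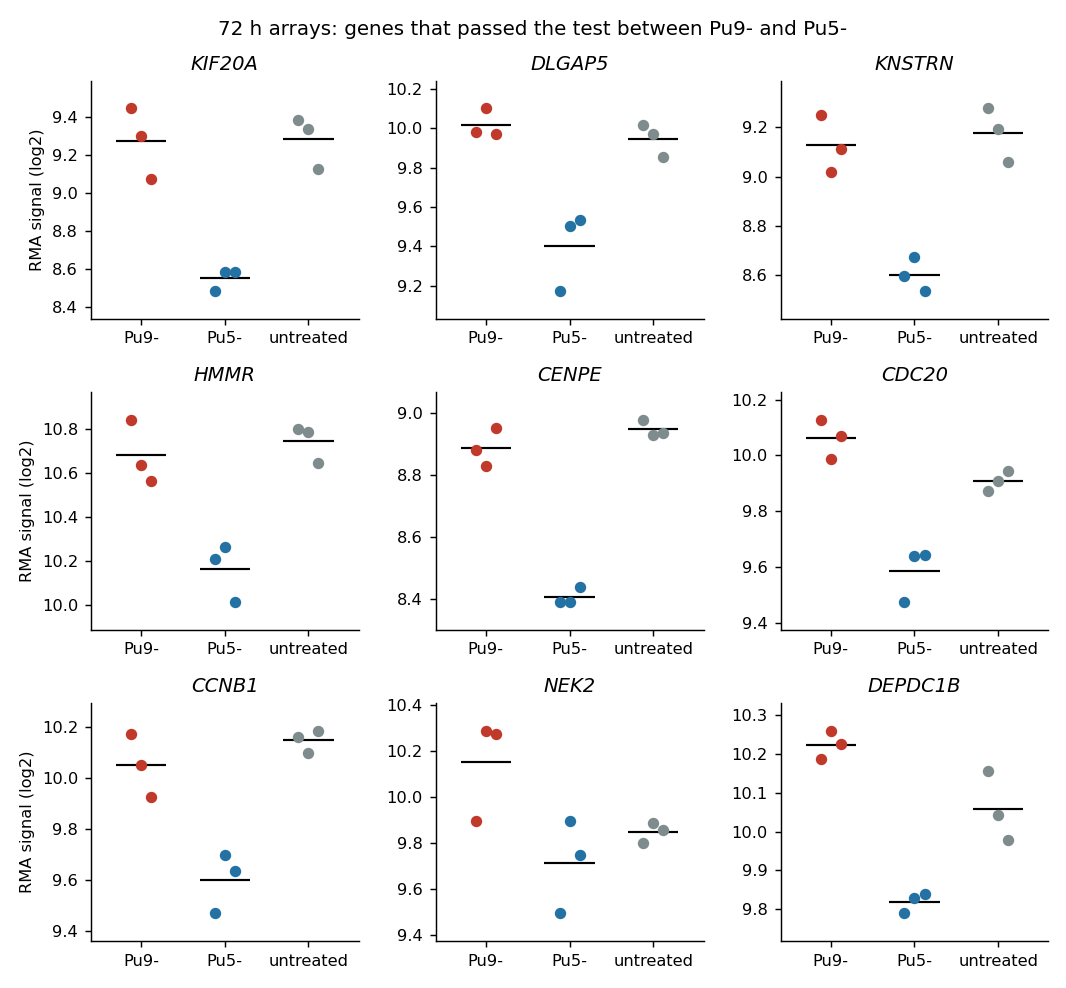
RMA signal (log2 units, vertical axes) of the 9 called genes in each 72 h array, with Pu9- at the left, Pu5- in the middle and untreated cells at the right; points are arrays and lines are group means. The 3 Pu9- arrays lie above the 3 Pu5- arrays for each gene, by 0.49 for KIF20A between the closest arrays.

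The calls differed in how they withstood the loss of 1 array. KIF20A and DLGAP5 stayed called without any 1 of the 6 arrays, with highest adjusted p-values of 0.0106 and 0.0461. CDC20 and HMMR lost the call without 1 of the arrays (0.188 without Pu5- replicate 1 for CDC20, 0.135 without Pu5- replicate 3 for HMMR), and CENPE without 2 (up to 0.0577). CCNB1 and NEK2 lost it without 4 of the arrays (up to 0.518 and 0.678), and DEPDC1B without 5 (up to 0.386), in each case with the highest value without Pu5- replicate 1. Over all 21 alternatives, each of the 9 differences kept its sign.

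Other probe sets of the called genes gave a further reading of the same RNA. There were 14 of them, for 5 of the 9 genes. The 12 with a mean log2 signal of at least 5 differed by 0.26 to 0.69, all higher with Pu9-. In 9 of the 12 the arrays did not overlap, while 3.18% of all genes were higher without overlap. The genes had been called on these same arrays, so this is a description. The ones that overlapped were all of NEK2, at 0.51, 0.45 and 0.36. The 2 dim ones, of CDC20 and NEK2, differed by 0.021 and 0.059. The probe sets used for DLGAP5 and NEK2 are of a design type that can hybridise with related transcripts. Those used for HMMR and CDC20 are of a type with probes shared between transcripts. The other probe set of DLGAP5, of another type, differed by 0.69. Other probe sets of HMMR differed by 0.44, 0.49 and 0.53, and the brighter other one of CDC20 by 0.50.

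PIF1, a DNA helicase that can unwind G-quadruplexes and also a gene of the late cell cycle, had a larger difference than any called gene and missed the threshold. It read 9.36, 9.44 and 9.42 with Pu9-, against 8.46, 8.63 and 8.73 with Pu5-. The arrays did not overlap, and the difference was 0.80 ± 0.17 (0.45 to 1.14; adjusted p = 0.0744). With the replicate number as a block it was called (adjusted p = 0.00128). Among the 21 measured G-quadruplex helicases and binding proteins, 10 were higher and 11 lower in sign, with a median of -0.0017 and no call, beside a median of -0.01 over all genes.

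The promoters of the called genes are shown because the genes moved together and late cell cycle genes share short motifs there. All 9 matched a RefSeq promoter of GRCh38.p14, from 250 bases before the gene start to 50 after it. In the letters shown, capitals mark the motif TTTGAA, its variant TTTAAA and the CCAAT box. Copies on the opposite strand appear as TTCAAA for the first motif and as ATTGG for the CCAAT box, while the variant reads the same on both strands. The KIF20A promoter is chr5:138178862-138179161 on the plus strand, that of CDC20 is chr1:43358731-43359030 on the plus strand, that of CCNB1 is chr5:69166900-69167199 on the plus strand, and that of DLGAP5 is chr14:55191536-55191835 on the minus strand.
KIF20A: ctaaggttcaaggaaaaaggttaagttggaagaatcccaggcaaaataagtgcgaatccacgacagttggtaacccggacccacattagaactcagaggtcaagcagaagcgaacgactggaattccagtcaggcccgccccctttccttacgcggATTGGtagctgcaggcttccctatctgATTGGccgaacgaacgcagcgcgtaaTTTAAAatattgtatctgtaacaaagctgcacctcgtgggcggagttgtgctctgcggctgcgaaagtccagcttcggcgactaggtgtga
CDC20: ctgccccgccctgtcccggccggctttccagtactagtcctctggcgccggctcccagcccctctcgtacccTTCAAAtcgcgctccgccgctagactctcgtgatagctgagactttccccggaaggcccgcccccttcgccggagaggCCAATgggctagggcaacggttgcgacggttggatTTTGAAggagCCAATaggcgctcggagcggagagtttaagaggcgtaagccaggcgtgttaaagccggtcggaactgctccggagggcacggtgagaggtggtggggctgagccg
CCNB1: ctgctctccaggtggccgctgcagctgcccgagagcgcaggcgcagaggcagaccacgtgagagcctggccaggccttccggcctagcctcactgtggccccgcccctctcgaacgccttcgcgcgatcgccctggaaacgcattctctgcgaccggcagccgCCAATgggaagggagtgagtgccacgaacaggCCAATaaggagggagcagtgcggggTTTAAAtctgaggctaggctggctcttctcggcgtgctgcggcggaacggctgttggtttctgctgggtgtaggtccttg
DLGAP5: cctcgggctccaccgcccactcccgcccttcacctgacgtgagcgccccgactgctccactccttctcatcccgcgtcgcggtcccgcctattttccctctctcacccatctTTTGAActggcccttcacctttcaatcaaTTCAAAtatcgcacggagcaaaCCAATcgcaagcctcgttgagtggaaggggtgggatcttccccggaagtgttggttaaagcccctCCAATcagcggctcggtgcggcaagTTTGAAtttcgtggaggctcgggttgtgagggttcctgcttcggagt
KIF20A and CCNB1 hold 1 TTTAAA and 2 CCAAT copies each, CDC20 holds 2 TTTGAA and 2 CCAAT copies, and DLGAP5 holds 3 TTTGAA and 2 CCAAT copies. TTTGAA stood in 4 of the 9 called promoters and TTTAAA in 3, against 12.1% and 9.30% of the 14425 promoters matched to tested genes. CCAAT stood in 7 of the 9, against 36.4% of all. None of these letters occurred in the KNSTRN window. Of the G2/M and mitosis genes with a matched promoter, described next, 10 of 19 held TTTGAA and 8 of 19 the TTTAAA variant. Of the G1/S and replication genes with one, 1 of 23 held TTTGAA and 3 of 23 held TTTAAA. The CCAAT box stood in 15 of the 19 G2/M promoters and in 13 of the 23 G1/S promoters. These counts describe the windows only.

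The wider list of G2/M and mitosis genes leaned the same way. All 24 measured members were higher in sign with Pu9-, with a median difference of 0.32 and a range of 0.13 (AURKB) to 0.72 (KIF20A), beside a median of -0.01 over all genes, of which 44.9% were higher in sign. The members were chosen with earlier results of these data known, so the direction is a description. Its called members were the 5 genes KIF20A, CENPE, CDC20, CCNB1 and NEK2. Groups did not overlap in 16 of the 24, all higher with Pu9-, against 3.18% of all genes. The mean over the 24 members was 10.19, 10.22 and 10.18 in the Pu9- arrays, against 9.79, 9.90 and 9.90 in the Pu5- arrays. The lowest Pu9- array thus lay above the highest Pu5- array.

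Members that missed the threshold covered the kinetochore, the checkpoint, the centrosome and the cyclins. CENPF, a kinetochore protein, differed by 0.52 ± 0.16 (adjusted p = 0.985). BUB1, a kinase of the spindle checkpoint, differed by 0.37 ± 0.09 (0.337), and AURKA, the centrosome kinase, by 0.30 ± 0.07 (0.152). TOP2A, which untangles chromosomes, read 12.62, 12.65 and 12.54 with Pu9-, against 12.37, 12.33 and 12.28 with Pu5-, a difference of 0.28 ± 0.07 (0.351). In CENPF, BUB1, AURKA and TOP2A the groups did not overlap. CCNB2 and CCNA2, further mitotic cyclins, differed by 0.33 ± 0.10 and 0.27 ± 0.10, and CDK1, their kinase partner, by 0.25 ± 0.11 with overlapping arrays. At the lower end, BIRC5, survivin, differed by 0.16 ± 0.07 and AURKB by 0.13 ± 0.13.

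Genes of the G1/S boundary and of DNA replication leaned the other way, and none was called. Of 29 measured members 27 were lower in sign with Pu9- and 2 higher, with a median of -0.14. In 8 members, all lower, the groups did not overlap, against 4.08% of all genes. The mean over the list was 9.14, 9.08 and 8.99 in the Pu9- arrays, against 9.35, 9.21 and 9.17 in the Pu5- arrays, and all 3 Pu9- arrays lay below the lowest Pu5- array. CCNE2, cyclin E2, which with CDK2 drives entry into S phase, had the lowest difference of all genes. It read 7.43, 7.21 and 6.79 with Pu9-, against 8.51, 7.82 and 7.69 with Pu5-. The groups did not overlap, but both were wide, and the difference of -0.86 ± 0.24 missed the threshold (adjusted p = 0.525; 0.0416 with the replicate number as a block). A second probe set of CCNE2 differed by -0.75.

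Other replication genes differed less. CDC45, a part of the replicative helicase, differed by -0.41 ± 0.13 (adjusted p = 0.989), E2F1 by -0.27 ± 0.14 and PCNA, the sliding clamp, by -0.26 ± 0.10. E2F1 read 6.78, 6.54 and 6.68 with Pu9-, against 6.94, 6.81 and 7.05 with Pu5-, and PCNA read 12.53, 12.35 and 12.33 with Pu9-, against 12.73, 12.65 and 12.60 with Pu5-. In both the groups did not overlap. CLSPN, claspin, which signals stalled replication to the checkpoint kinase CHEK1 and stands on the DNA repair list, read 5.63, 5.65 and 5.34 with Pu9-, against 6.02, 6.07 and 5.91 with Pu5-, a difference of -0.46 ± 0.13 (0.77). Of 19 measured DNA repair and checkpoint genes 15 were lower in sign, beside 9998 of all 18132 genes. In 5 of the 19, all lower, the groups did not overlap, against 4.08% of all genes. The median of the list was -0.07, with no call.

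**Figure D2:**
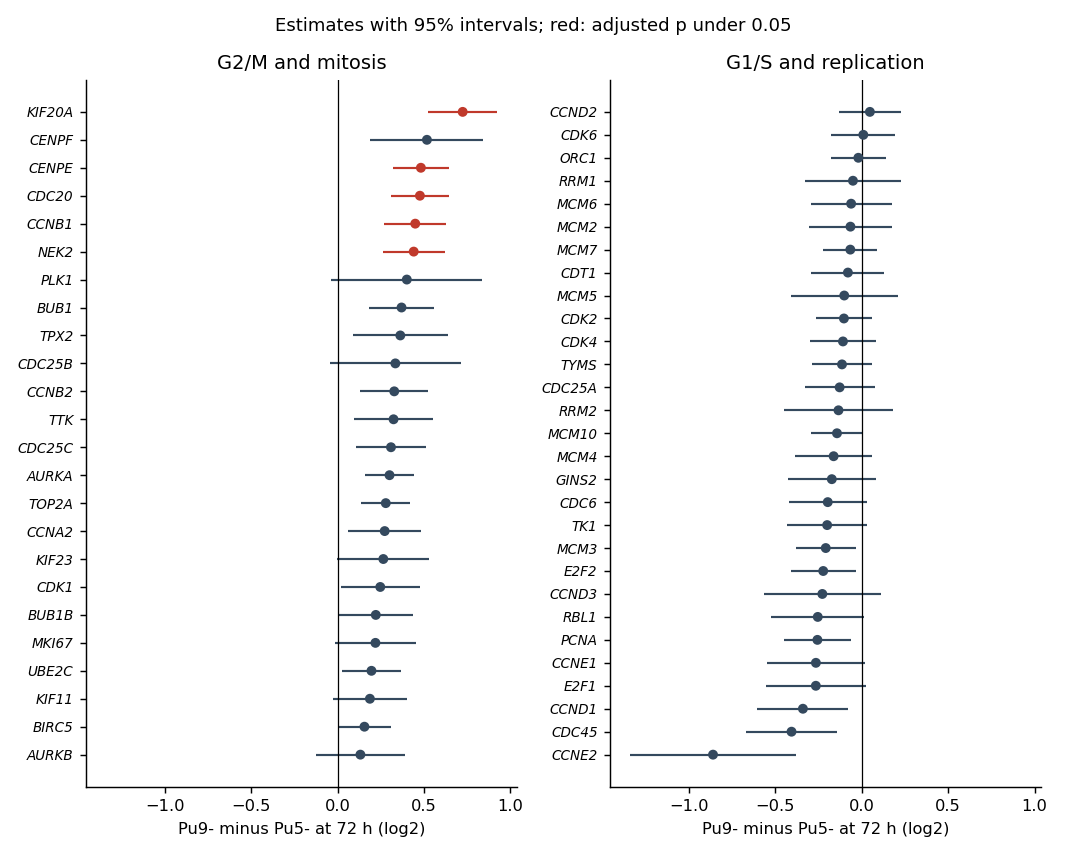
Pu9- minus Pu5- difference at 72 h (log2, horizontal axes) for the measured members of the G2/M and mitosis list (left, 24 genes) and of the G1/S and replication list (right, 29 genes); points are limma estimates, lines 95% intervals, and red marks an adjusted p under 0.05. All 24 mitosis genes lie right of 0 and 27 of the 29 replication genes lie left of it.

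**Figure D3:**
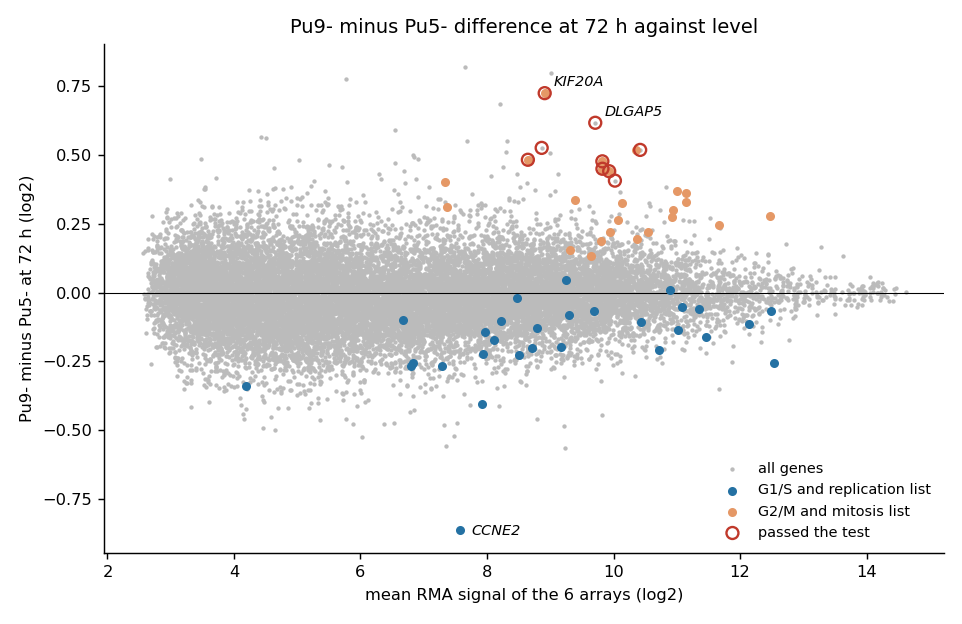
Pu9- minus Pu5- difference at 72 h (log2, vertical axis) against the mean RMA signal of the 6 arrays (log2, horizontal axis); grey points are all 18132 genes, orange and blue points the 2 cell cycle lists, and red circles the 9 called genes. The called genes lie between 0.41 and 0.72, and CCNE2 lies lowest, at -0.86.

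Each arm was also set against the untreated cells of 72 h. Both comparisons use the same 3 untreated arrays, so their values are given side by side. The 9 genes had been called on the same Pu9- and Pu5- arrays for being higher with Pu9-, a choice that itself favours a low reading with Pu5- and a high one with Pu9-, so their counts here are a description. KIF20A read 9.38, 9.33 and 9.13 in untreated cells, which overlapped with the Pu9- arrays and lay above all Pu5- arrays. Its difference from untreated cells was -0.0075 with Pu9- (adjusted p = 0.99) and -0.73 with Pu5- (adjusted p = 0.000146, limma). Of the 9 genes, 0 passed the test with Pu9-, where the largest difference in size was 0.30 (NEK2, adjusted p = 0.0813), and 7 fell with Pu5-, where 0.403% of all genes fell. With Pu5-, DLGAP5 fell by 0.55, HMMR by 0.58, CENPE by 0.54, CCNB1 by 0.55 and KNSTRN by 0.57, and CDC20 fell by 0.32 with an adjusted p of 0.0499, close to the threshold. NEK2 and DEPDC1B, at -0.14 and -0.24, were not called with Pu5-. PIF1, which differed by -0.09 with Pu9-, fell by 0.89 with Pu5- (adjusted p = 0.005). The calls with Pu5- held without any 1 of the 6 arrays compared, except that of CDC20, which was lost without each of them (up to 0.236). With 2 arrays per group, all 7 calls and that of PIF1 were lost without replicate number 2 (adjusted p from 0.0994 for KIF20A and CCNB1 to 0.739 for CDC20), and without number 3 that of KIF20A alone held (0.0351; the others from 0.123 to 0.846). In a fit of the compared arrays only, the calls of KIF20A (0.0376) and PIF1 (0.0326) held, and those of the other 6 did not (0.0731 to 0.313).

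Over the G2/M list the median difference from untreated cells was 0.06 with Pu9-, with no call, and -0.23 with Pu5-, with 6 genes lower. Over the G1/S list it was 0.18 with Pu9-, with 3 genes higher, and 0.36 with Pu5-, with 8 higher. The list means of the untreated arrays were 10.14, 10.13 and 10.12 for G2/M and 9.01, 8.87 and 8.79 for G1/S. CDC6, which loads the helicase at replication origins, was called in both arms, at 0.55 with Pu9- (adjusted p = 0.0100) and 0.75 with Pu5- (0.000303), and MCM10, a replication fork protein, at 0.49 with Pu9- and 0.63 with Pu5-. Both genes lost the call in each arm without replicate number 2 or 3 (at least 0.0994), and CDC6 with Pu9- also without untreated replicate 3 or Pu9- replicate 2 (up to 0.212). In a fit of the compared arrays only, CDC6 with Pu5- alone of these held (0.0392; MCM10 0.0799 with Pu5-, and both genes 0.281 with Pu9-). CCNE2 rose by 1.22 with Pu5- (adjusted p = 0.00647), while it differed by 0.36 with Pu9- (0.574). Its call with Pu5- was lost without untreated replicate 3 (0.0931), in a fit of the compared arrays only (0.0971), and without replicate number 2 (0.396) or 3 (0.203). Over all genes Pu9- changed 174 of 18132 (0.96%; 82 higher, 0.452%, and 92 lower, 0.507%) and Pu5- changed 141 (0.778%; 68 higher, 0.375%, and 73 lower, 0.403%). With the replicate number as a block these counts were 459 and 247, and without the Pu9- array of replicate 1 the Pu9- count was 1200.

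Genes called in a single arm against untreated cells were not thereby shown to differ between the arms. Those called only with Pu9-, chosen for the largest difference between the arms, were LOC105375218, CLHC1, C3orf33, FRMD6 and GRAMD1B, and none was called between Pu9- and Pu5- (adjusted p = 1 each). GRAMD1B, a sterol transfer protein, read 6.51, 7.28 and 6.91 with Pu9-, 6.33, 6.68 and 6.49 with Pu5- and 6.13, 6.37 and 6.12 in untreated cells. Its arms overlapped, with a difference of 0.40 ± 0.14. The 5 calls with Pu9- were each lost without 4 or 5 of the 6 arrays compared when these were left out one at a time, Pu9- replicates 2 and 3 and untreated replicates 1 and 3 among them for each gene. The genes called in both arms with the largest changes were WBP2NL, C1RL, CACNA2D4, PPP1R10, KANK4 and PJVK, all lower than in untreated cells, by 0.85 to 1.38. PPP1R10, a regulatory subunit of a nuclear phosphatase, read 6.94, 5.62 and 6.24 with Pu9-, 6.84, 5.70 and 6.40 with Pu5- and 7.54, 7.04 and 7.53 in untreated cells. Replicate 1 was nearest to the untreated level in both arms. Its calls were each lost without 4 of the 6 arrays compared (up to 0.303 with Pu9- and 0.323 with Pu5-), while the calls of CACNA2D4 were lost without 1, replicate 2 of the arm (0.126 with Pu9- and 0.0745 with Pu5-). With Pu9- the call of WBP2NL held without any 1 array, and those of C1RL, PJVK and KANK4 were lost without 2, 2 and 4 of the 6 (up to 0.131, 0.184 and 0.223). With Pu5- those of WBP2NL, C1RL and KANK4 were each lost without 5 of the 6 (up to 0.314, 0.264 and 0.365), and that of PJVK without 3 (up to 0.213).

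At the earlier times none of the 9 genes was called between the arms. limma called 0 genes at 24 h (lowest adjusted p 0.515; 732 genes, 4.04%, at an unadjusted p under 0.05) and 0 at 48 h (lowest 1; 161 genes, 0.888%). The 9 genes differed by -0.04 to 0.15 at 24 h and by -0.02 to 0.10 at 48 h. Both upper values were those of CDC20, which was higher with Pu9- within each replicate number at both times (0.05 to 0.20). CCNE2 was lower within each number at both times (-0.13 to -0.33). Of the 24 G2/M members, 12 were higher in sign at 24 h and 21 at 48 h, with medians of 0.0048 and 0.02. Over all 18132 genes 10234 and 9988 were higher in sign. At 72 h KIF20A differed by 0.96, 0.72 and 0.49 within replicate numbers 1, 2 and 3, against 0.02, 0.14 and 0.02 at 48 h. The F test of whether the Pu9- minus Pu5- difference depends on time called 0 genes, with 473 (2.61%) at an unadjusted p under 0.05. Its lowest adjusted p-values belonged to KIF20A (0.231), DLGAP5 (0.281) and LINC02984 (0.635). This test therefore showed no dependence on time for any gene. It asks for any dependence on time, and a contrast of 72 h alone with the earlier times is not reported here.

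**Figure D4:**
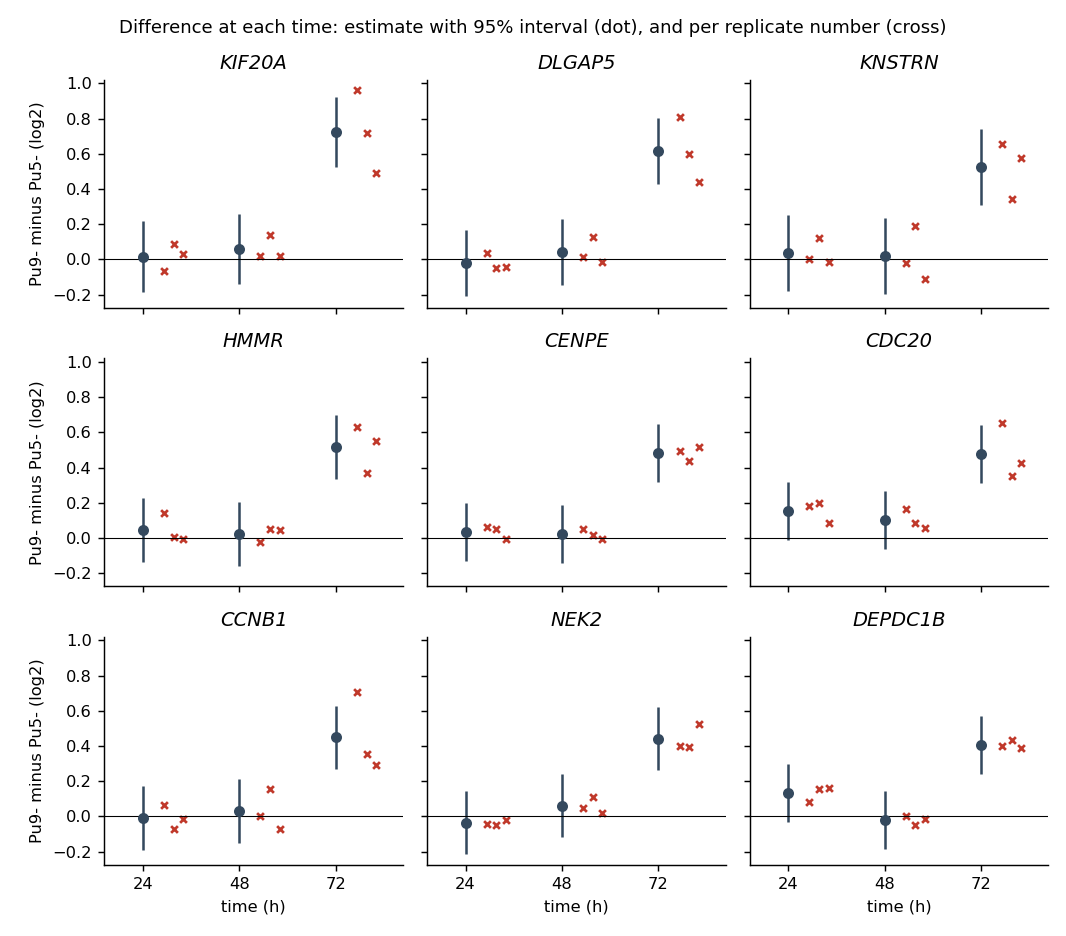
Pu9- minus Pu5- difference (log2, vertical axes) of the 9 called genes after 24, 48 and 72 h (horizontal axes); dots are limma estimates with 95% intervals and crosses the differences within replicate numbers 1, 2 and 3. The estimates lie between -0.04 and 0.15 at 24 and 48 h, and between 0.41 and 0.72 at 72 h.

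**Figure D5:**
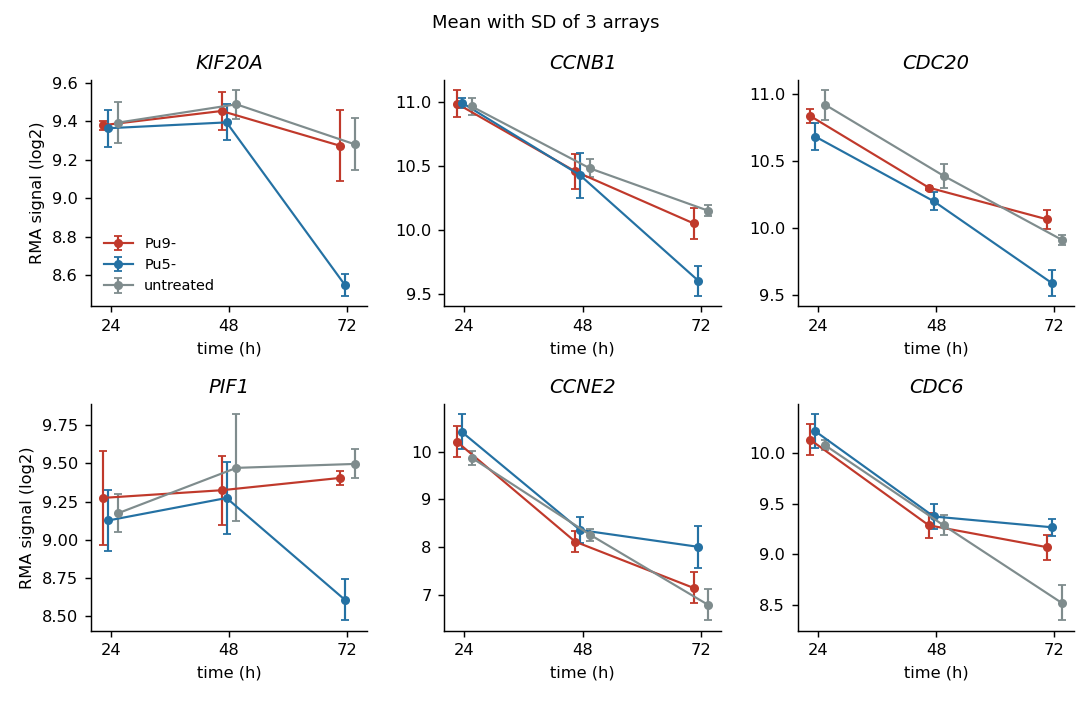
Mean RMA signal (log2, vertical axes) after 24, 48 and 72 h (horizontal axes) for 6 genes in Pu9-, Pu5- and untreated cells; error bars are SDs of 3 arrays. At 72 h the Pu5- means of KIF20A, CCNB1, CDC20 and PIF1 lie below both other means, and those of CCNE2 and CDC6 lie above them.

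None of the other gene lists held a call between the arms. MYC, the gene whose promoter element the oligonucleotides resemble, read 11.88, 11.67 and 11.64 with Pu9-, against 11.72, 11.77 and 11.71 with Pu5-. The arrays overlapped, and the difference was -0.0050 (95% interval -0.22 to 0.21). The 12 genes of MYC and its network had a median of 0.02 and the 31 MYC target and ribosome biogenesis genes a median of 0.01. Type I interferon genes (28 measured), nucleic acid sensors (20), NF-kB and inflammatory genes (24) and monocyte and macrophage markers (25) had medians of -0.01, -0.04, 0.00 and -0.04. The largest differences among them, CYBB, a subunit of the phagocyte oxidase, at -0.49 ± 0.20, CMPK2, an interferon-induced kinase, at -0.48 ± 0.18 and CXCL8, a chemokine, at -0.46 ± 0.37, were not called. Their other probe sets differed by -0.098 to 0.093 for CYBB, -0.0026 and 0.16 for CMPK2, and -0.019 and 0.064 for CXCL8.

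Stress and metabolic genes were likewise without a call. The 16 heat shock genes had a median of 0.08, the 25 genes of the response to unfolded proteins -0.05, the 20 sterol and fatty acid synthesis genes -0.08 and the 24 selenoprotein genes 0.03. SELENOH, a nuclear selenoprotein, read 11.74, 11.65 and 11.73 with Pu9-, 11.71, 11.64 and 11.66 with Pu5- and 12.15, 12.13 and 12.11 in untreated cells. It fell in both arms against untreated cells (by 0.42 with Pu9-, a call lost without Pu9- replicate 2 at 0.0788, and by 0.46 with Pu5-), and the arms differed by 0.04 (95% interval -0.11 to 0.19). CCDC80, a secreted matrix protein, read 5.99, 5.91 and 5.85 with Pu9-, 6.35, 6.30 and 6.26 with Pu5- and 5.51, 5.20 and 5.07 in untreated cells. It rose in both arms (by 0.66 with Pu9-, a call lost without 4 of the 6 arrays compared, up to 0.234, and by 1.04 with Pu5-), and the arms, which did not overlap, differed by -0.39 ± 0.16 (adjusted p = 1). Its other, dimmer probe sets differed by -0.30 to 0.13, with overlapping arrays. GPX1, a glutathione peroxidase, differed between the arms by 0.13 ± 0.09, SELENOW by 0.02 ± 0.09, the integrin gene ITGAM by 0.0060 ± 0.17, the matrix protease gene MMP9 by 0.04 ± 0.31 and the DNA sensor gene AIM2 by -0.12 ± 0.26, none of them called.

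Genes lower with Pu9- were sought by the same rule, and none was called with all 6 arrays and no block. SUCNR1, the succinate receptor, read 9.09, 8.81 and 8.96 with Pu9-, against 9.65, 9.51 and 9.39 with Pu5-. The groups did not overlap, and the difference was -0.57 ± 0.15 (adjusted p = 0.393; 0.00667 with the replicate number as a block). ZNF75A, a zinc finger gene, read 6.90, 6.70 and 6.29 with Pu9-, against 7.12, 7.01 and 7.04 with Pu5- (-0.43 ± 0.12; 0.525). CEBPD, a myeloid transcription factor gene, differed by -0.42 ± 0.12, and TMEM154, ABCC8, PTN, GPX2 and DIPK2B by -0.31 to -0.41. Other probe sets did not all follow: those of ABCC8 differed by 0.20 and 0.055, those of CEBPD by -0.35 to 0.091, those of DIPK2B by -0.16 to 0.020, those of ZNF75A by -0.092 and -0.11 and that of PTN by -0.094. With the mean of a gene's probe sets the difference was -0.037 for ABCC8, -0.15 for CEBPD, -0.15 for DIPK2B, -0.21 for ZNF75A and -0.23 for PTN, while TMEM154 kept -0.35.

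The precision of 3 arrays per group set what could be seen. The median standard error of a gene's difference was 0.12 on the log2 scale, and the median half-width of its 95% interval was 0.24. For 16568 genes (91.4%) the whole interval lay within 0.5 of 0, and for 18117 (99.9%) within 1. Dim genes are counted in these shares, since only 12691 of the 18132 genes reached a mean log2 of 5 in the higher group. No gene differed by 1 or more, and the largest differences in each direction were 0.82 and -0.86. Genes without a call were thus bounded, not shown to be alike.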

How the data were processed

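Gene expression was measured on Affymetrix 3' IVT arrays from 100 ng of total RNA per sample, per the labels' protocols. The authors deposited log2 values made with RMA, a method that removes background, equalises the array distributions and condenses each probe set to 1 value; per the submitters' processing notes RMA and limma were used, with versions not given in the sources used here. Quantile normalisation makes all arrays alike in distribution, so a change in total RNA per cell is not measured. The number of arrays limits precision. Array columns were matched to samples by title.

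Of 49293 non-control probe sets, 44988 had 1 gene symbol, 1832 had several and 2473 had none; the last 2 kinds were left out. Each of 18132 genes was represented by its brightest probe set on average (11734 had several to choose from). No filter on dim genes was applied. limma 3.58.1 in R 4.3.3 fitted 1 mean for each of 13 groups (26 residual and 7.13 prior degrees of freedom), with Benjamini-Hochberg adjustment over all genes and a threshold of 0.05. The fit was tested on simulated data with independent noise, of the same spread for a gene in all arrays. That test could not show whether pooling the spread or leaving out the replicate number was sound. Figures were drawn with matplotlib 3.10.9.

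Replicate numbers come from the sample titles. Same-numbered Pu9- and Pu5- arrays of 72 h deviated together from their group means (correlations 0.34 to 0.58 across genes, against -0.40 to 0.07 for differently numbered arrays), and the pairs at the other times and against untreated cells correlated at 0.14 or more, so the number was also fitted as a block. Named genes were the called genes; the 10 lower genes of smallest p with arrays that did not overlap and a mean log2 of at least 5, and PIF1 by the same fill; up to 5 genes called against untreated cells in a single arm and 6 called in both, by size; the 2 largest differences of each of 33 gene lists; the 3 smallest p of the time F test; and MYC, SELENOW, SELENOH, GPX1, CCNE2, CCDC80, ITGAM, AIM2, MMP9 and CDC20. Other list members, the genes of the closing section and the markers given with values were picked after their values were seen. The members and lists were chosen with earlier results of these data known. Alternatives were the block, other sets of arrays, each array or replicate number left out, other probe set rules, filters and normalisations, the ACTB covariate, other priors and array weights. The fits of the compared arrays with the block and of the 72 h arrays only were added after seeing the data.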

Additional observations from a re-analysis of the deposited data

How the results depend on the processing

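The count of 9 genes between Pu9- and Pu5- at 72 h depended on the arrays that set the spread. It was 0 in a fit of the compared arrays only (lowest adjusted p 0.32), 0 with quantile normalisation repeated over them (0.735), and 0 in the 2 fits chosen after seeing the data, the compared arrays with a replicate block (0.437) and the 72 h arrays only (0.117). At an unadjusted p under 0.05 these 4 fits held 491, 540, 1571 and 496 genes. Leaving out 1 of the 6 arrays gave 3 (Pu5- replicate 1) to 30 genes (Pu9- replicate 1), with 4 without Pu5- replicate 3. Leaving out a whole replicate number gave 0 (number 2) to 9 (number 1), with 1 for number 3, which leaves 2 arrays per group. The replicate block gave 12 genes and kept all 9; beyond the block values printed in the report it changed no other call of a named gene between Pu9- and Pu5-. Every probe set, the mean of probe sets, the filter at 5, the median shift, the ACTB covariate, the other prior and array weights gave 6 to 12.

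At 24 h array weights called 6 genes, and at 48 h the test over every probe set called 1; the other alternatives called 0. Against untreated cells at 72 h the Pu9- count of 174 was 459 with the replicate block, 0 with the compared arrays only, 374 over every probe set and 1111 with array weights; it ran from 4 to 1200 without 1 array and from 0 to 1367 without a replicate number. The Pu5- count of 141 was 247 with the replicate block, 15 with the compared arrays only and 532 with array weights; it ran from 31 to 317 and from 1 to 556.

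Over the 21 alternatives the G2/M median lay between 0.26 and 0.34, with 24 of 24 members higher in each, and the G1/S median between -0.17 and -0.10. Signs turned for a few uncalled genes, by more than 1 standard error. Between Pu9- and Pu5-, leaving out arrays gave values from -0.38 to 0.28 for PPP1R10 (0.22 without Pu5- replicate 1), -0.31 to 0.15 for CACNA2D4, -0.67 to 0.029 for C1RL (0.022 without Pu9- replicate 2), -0.39 to 0.18 for KANK4, -0.26 to 0.013 for HLA-DQB1 and -0.086 to 0.72 for CLK4. TLR7 came to 5.4e-05 with the mean of its probe sets. KIF20A with Pu9- against untreated cells ran from -0.093 to 0.091. The cause of these changes was not tested.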

Other observations

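Genes that followed the called ones in order of p-value did not pass the test, and those named here were chosen after their values were seen. The 20 genes of smallest p were all higher with Pu9-, and in 19 of the 20 the arrays of the 2 arms did not overlap. Ranking by p on these same arrays itself favours arrays that do not overlap. Over all genes 3.18% were higher and 4.08% lower without overlap. Of the first 30, 26 were higher. RNASE1, a secreted ribonuclease (-0.35), TCF19 (-0.52), SUCNR1 (-0.57) and LEFTY2, a secreted inhibitor of NODAL signalling (-0.42), were lower. RNASE1 and LEFTY2 were dim, at 4.38 and 3.99 with Pu9- and at 4.74 and 4.41 with Pu5-. After PIF1 came CDCA2, a phosphatase subunit of mitotic chromatin (0.40 ± 0.09, adjusted p = 0.107), FAM83D, which recruits casein kinase to the spindle (0.55 ± 0.12, 0.113), and CENPA, the histone of centromeres (0.38 ± 0.09, 0.262). ASPM, a spindle pole protein, differed by 0.43 ± 0.11 (0.337), KIF18A, a kinesin that aligns chromosomes, by 0.55 ± 0.14 (0.345) and KIF4A, a kinesin of chromosome condensation, by 0.38 ± 0.10 (0.352). Against untreated cells ASPM fell by 0.76 with Pu5- (adjusted p = 0.000174) and differed by -0.33 with Pu9- (0.126).

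Without the Pu9- array of replicate 1, the 16 genes called lower included TCF19, a factor of the G1/S wave (-0.70 ± 0.13, adjusted p = 0.0226), NTRK3, a neurotrophin receptor (-0.61 ± 0.12, 0.0226), and C1RL, a serine protease related to complement (-0.67 ± 0.15, 0.048). With all arrays TCF19 differed by -0.52 ± 0.13 (0.393). These genes were likewise singled out after their values were seen.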
